A study of Mus musculus with 14 samples.

Results

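The genes of retinoic acid metabolism and its receptors are 9 of the 21775 protein-coding genes on which peaks were counted. They were chosen by name and by role. Aldh1a1, Aldh1a2 and Aldh1a3 encode the retinaldehyde dehydrogenases that make retinoic acid. Cyp26a1, Cyp26b1 and Cyp26c1 encode the cytochrome P450 enzymes that break it down, and Rara, Rarb and Rarg encode the receptors that bind it. Their RefSeq spans were widened by 5 kb on each side, and a gene was called occupied if at least 1 bp of this window lay under a peak. All 9 were found in the gene table.

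Chromatin immunoprecipitation and sequencing (ChIP-seq) was done in mouse embryonic stem cells (C57BL/6, embryonic day 3.5 to 4.5 in the labels) for RNF2 and for BAP1. RNF2 ChIP was made in 2 libraries of BAP1 knockout cells, 1 library of RNF2 knockout cells as the antibody control, and 2 libraries of wild-type cells. For BAP1 there was 1 library from cells whose BAP1 carries C91A, a change of the catalytic cysteine, and 1 from BAP1 knockout cells, the control for that antibody. Each of these 7 libraries had its own input. All cells, wild type included, had been given 100 nM 4-hydroxytamoxifen and 10 µM of the caspase inhibitor emricasan for 4 days. The C91A cells were written as Bap1C91A/- and had been crosslinked with disuccinimidyl glutarate before extraction. The sources used here do not give how the deletions were made, nor whether libraries of a genotype came from separate cultures or clones. Peak lists hold no expression values, so stem cell identity was not checked against marker levels.

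Retinoic acid is a morphogen made from vitamin A. It patterns the hindbrain, somites and limbs, and it drives embryonic stem cells out of self-renewal. Its level in a tissue is set by Aldh1a enzymes at the source and Cyp26 enzymes at the sink, and its receptors bind DNA with a retinoid X receptor partner at direct repeats of a hexamer in target genes. Several of those targets are pathway genes themselves, Cyp26a1 and Rarb being the classic ones. RNF2 (RING1B) is the ubiquitin ligase of Polycomb repressive complex 1, which marks histone H2A at silent developmental genes with CpG-rich starts. BAP1 is the deubiquitinase that takes this mark off.

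The first and second RNF2 libraries differed in depth and in how peaks were called. The first libraries held 54.1 M tags in BAP1 knockout and 58.4 M in wild type, and the second held 139 M in BAP1 knockout and 149 M in wild type. The lists held 7946 and 39872 peaks in BAP1 knockout, 0 in RNF2 knockout (119 M tags) and 4038 and 28770 in wild type. BAP1 ChIP gave 2395 peaks from 415 M tags for C91A, and its BAP1 knockout control gave 144 from 32.5 M. All these counts are of peaks on the autosomes, X and Y. With peaks elsewhere included, the control list held 203 and the C91A list 2396. The RNF2 lists then held 7947 and 39879 for BAP1 knockout and 4039 and 28777 for wild type. Genotypes were therefore set against each other within a replicate number, as a first and a second pair of libraries. The first library of each genotype carries no number in the labels and was taken as replicate 1. No difference between genotypes was tested, since 2 libraries against 2 allow an exact permutation test (two-sided) no p below 0.333. In the second libraries a further limit applied. Their pileup stopped at 200 fragments, which is the most that 1 tag per position on each strand, extended to 100 bp, can give. Peaks at that ceiling made up 2.01% of the list in BAP1 knockout and 1.78% in wild type.

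The promoters that carry the main contrasts are shown here from RefSeq (GRCm38.p6), from 250 bases before the annotated start to 50 bases after it, 5′ to 3′ on the strand of the gene. The table held promoters for 8 of the 9 genes, Aldh1a3 being the one without. Aldh1a2 (chr9:71215539-71215838, plus strand) and Cyp26a1 (chr19:37697558-37697857, plus strand) are shown because RNF2 lay over their starts in all 4 BAP1 knockout and wild-type libraries. Aldh1a1 (chr19:20601718-20602017, plus strand, the downstream of its annotated starts) is shown as the gene with no peak. Rarb (chr14:16575427-16575726, minus strand) was added after its values were seen. Capitals mark a direct repeat of receptor hexamers with 5 bases between them, searched on both strands. The hexamers were AGGTCA and its variant GGGTCA, as well as AGTTCA and its variant GGTTCA, in any combination.
Aldh1a2: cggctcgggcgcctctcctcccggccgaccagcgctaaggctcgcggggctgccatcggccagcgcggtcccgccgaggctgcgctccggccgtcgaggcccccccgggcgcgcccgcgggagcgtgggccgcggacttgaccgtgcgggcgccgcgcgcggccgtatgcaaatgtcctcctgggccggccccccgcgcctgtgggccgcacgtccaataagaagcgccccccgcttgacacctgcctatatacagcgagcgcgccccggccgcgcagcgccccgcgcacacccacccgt
Cyp26a1: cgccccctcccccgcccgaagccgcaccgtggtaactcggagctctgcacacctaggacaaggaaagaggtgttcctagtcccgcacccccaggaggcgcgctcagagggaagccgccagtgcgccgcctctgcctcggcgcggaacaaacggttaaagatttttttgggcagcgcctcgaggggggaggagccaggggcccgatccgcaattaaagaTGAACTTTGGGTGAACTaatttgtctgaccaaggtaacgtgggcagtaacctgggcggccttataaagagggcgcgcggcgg
Rarb: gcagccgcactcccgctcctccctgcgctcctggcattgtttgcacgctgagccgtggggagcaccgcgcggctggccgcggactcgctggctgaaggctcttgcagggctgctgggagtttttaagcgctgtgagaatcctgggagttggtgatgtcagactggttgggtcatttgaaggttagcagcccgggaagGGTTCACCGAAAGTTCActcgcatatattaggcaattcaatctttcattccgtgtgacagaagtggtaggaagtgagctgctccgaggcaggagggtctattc
Aldh1a1: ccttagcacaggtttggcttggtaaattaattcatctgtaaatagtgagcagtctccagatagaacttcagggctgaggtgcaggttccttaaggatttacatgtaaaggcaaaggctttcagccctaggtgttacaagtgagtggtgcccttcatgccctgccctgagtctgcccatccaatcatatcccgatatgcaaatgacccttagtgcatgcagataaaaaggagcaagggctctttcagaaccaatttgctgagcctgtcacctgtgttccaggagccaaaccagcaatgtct

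Such a repeat was found in 2 of the 8 genes with a promoter. In Rarb it reads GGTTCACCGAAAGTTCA on the strand of the gene, from -53 to -37 bp relative to the start. In Cyp26a1 it reads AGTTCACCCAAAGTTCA on the opposite strand, from -32 to -16 bp relative to the start. Among the 21262 promoters of protein-coding genes, 17 held a repeat with this spacing, or 0.08%. Repeats of the same hexamers with 1 base between them were in 0.183% of promoters and those with 2 in 0.0894%, and neither was found in the promoters of the 8 genes. A match describes the letters in this window only, and binding of receptors was not measured.

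The CpG content of the promoters differed widely among the genes. That of Aldh1a2 held 50 CpG dinucleotides, and 1.1% of all promoters held as many or more. Cyp26a1 held 26 (22.6% of promoters held at least as many), the upstream pair of Rara starts 20 and 21, and Rarb 17. The other starts of Rara held 5 and 6, those of Rarg 12 and 10, Cyp26b1 held 9 and Cyp26c1 held 5. Aldh1a1 stood lowest, with 3 and 1 at its pair of starts. The median over all promoters was 13. Promoters whose start lay under an RNF2 peak had a median of 22 and 22 in BAP1 knockout and of 23 and 23 in wild type, and the other promoters had 10 and 5 in BAP1 knockout and 12 and 6 in wild type.

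**Figure D1:**
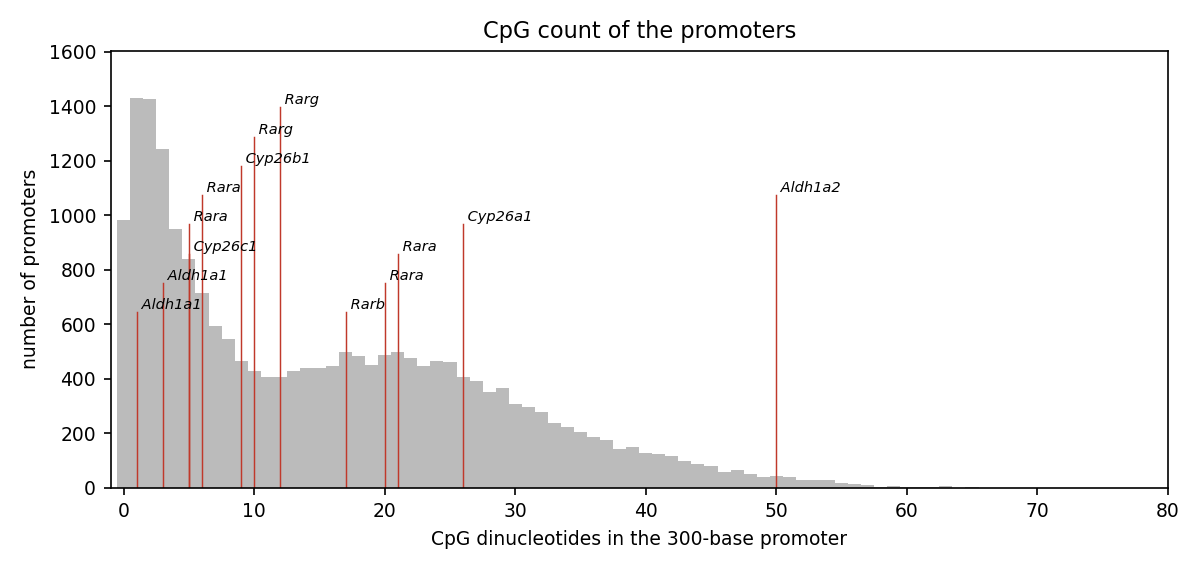
Number of CpG dinucleotides in the 300-base promoters of 21262 annotated starts (grey bars, number of promoters), with the starts of the named genes as red lines whose height carries no value. Aldh1a2 stands at 50 and Cyp26a1 at 26, whereas both starts of Aldh1a1 lie at 3 or fewer.

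RNF2 lay over most genes of this pathway, and the genes differed in how strongly. Both Aldh1a2 and Aldh1a3 and all 3 Cyp26 genes held RNF2 peaks in every BAP1 knockout and wild-type library. The 3 receptor genes held peaks in 3 of these libraries, the first wild-type library being the one without. Aldh1a1 held none anywhere. In counts, 8 of 9 genes were occupied in each BAP1 knockout library, where 29.6% and 66.5% of all protein-coding genes were. In wild type, 5 and 8 of 9 were occupied, against 14.5% and 58.8% of all genes. In both BAP1 knockout libraries 8 of 9 held a peak (29.6% of all genes), and in both wild-type libraries 5 of 9 did (14.5% of all genes). The RNF2 knockout library listed no peak at these genes or elsewhere (0% of all genes). The deeper second libraries cover most genes, so the counts of 8 there stand nearer to the background.

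Annotated starts were in the promoter table for 8 of the 9 genes. A start lay under an RNF2 peak at 5 and 6 of 8 genes in BAP1 knockout (16.9% and 45.5% of all genes with a start) and at 2 and 7 of 8 in wild type (7.46% and 35.1%). Aldh1a2 and Cyp26a1 had a covered start in all 4 libraries, 2 of 8 against 7.15% of all genes. Cyp26c1, Rarb and Rarg had one in every library but the first wild-type one, 3 of 8 against 9.19%. A BAP1 peak of the C91A list lay over a start at 1 of 8 genes, Cyp26a1 (1.4% of all genes).

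**Figure D2:**
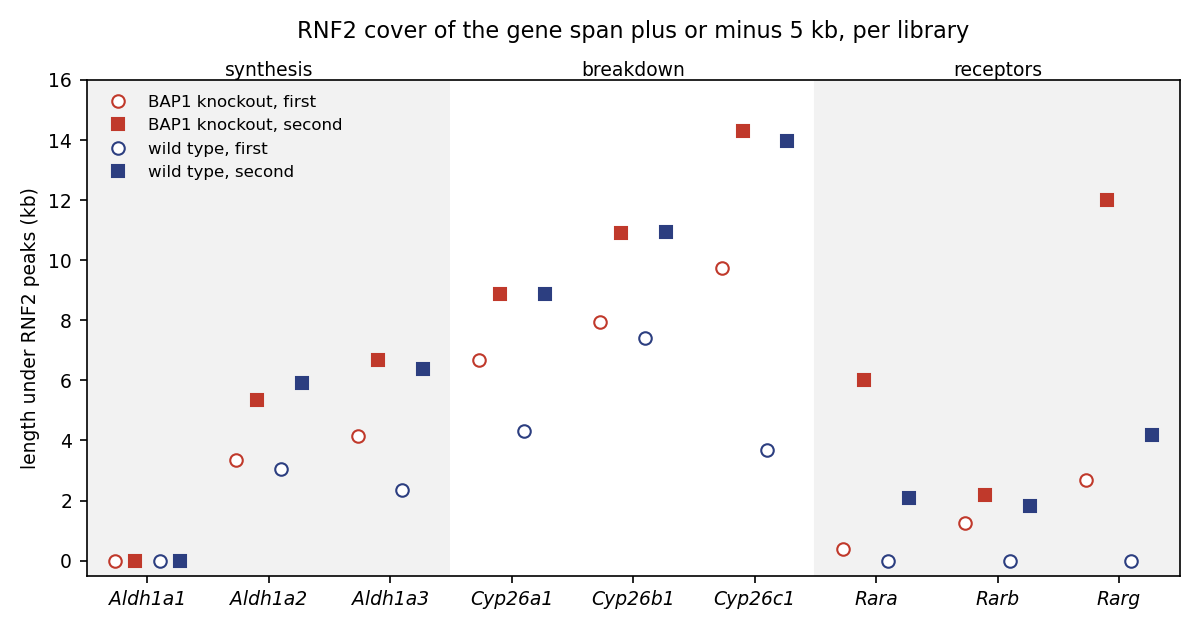
Length under RNF2 peaks (kb) within the gene span plus or minus 5 kb, 1 point per library, for BAP1 knockout (red) and wild type (blue), first libraries open and second libraries filled. The Cyp26 genes reach 14.3 kb, Aldh1a1 lies at 0 in all 4 libraries, and the receptor genes lie at 0 in the first wild-type library alone.

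Of the genes of synthesis, Aldh1a2 had the highest RNF2 enrichment of the 9 in each of the 4 lists. It encodes RALDH2, the main source of retinoic acid in the early embryo (chromosome 9, 71215789 to 71296243). Its highest fold enrichment, the authors' ratio of ChIP pileup to local background at a peak summit, was 34.5 and 23.9 in BAP1 knockout, against 16.3 and 22.1 in wild type. Within their own lists these peaks stood at the top: 0.138% and 0.223% of peaks in BAP1 knockout, and 2.33% and 0.389% in wild type, had as high a value or higher. The peaks covered 3364 and 5362 bp in BAP1 knockout and 3054 and 5906 bp in wild type. BAP1 knockout was thus the longer in the first pair and the shorter in the second, and the ranges of both genotypes overlapped. The main peak spanned the start in each library, from -748 to 2615 bp relative to it in the first BAP1 knockout library and from -111 to 2401 bp in the first wild-type library. In both second libraries its pileup stood at the ceiling.

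Aldh1a3, which encodes the dehydrogenase of the eye and nasal region (chromosome 7, 66390892 to 66427477), held RNF2 at both ends of its window. At the end of higher coordinate a peak had a fold enrichment of 12.3 and 14.5 in BAP1 knockout, against 5.98 and 17.8 in wild type. The peak at the other end lay outside the gene, over the annotated start of the neighbouring kinase gene Lrrk1 (66388341), with 12.4 and 21.9 in BAP1 knockout and 4.41 and 20.3 in wild type. Together the peaks covered 4138 and 6694 bp in BAP1 knockout and 2337 and 6370 bp in wild type. With each flank ended midway to the next protein-coding gene, which removes the Lrrk1 peak, the cover was 2296 and 4248 bp in BAP1 knockout and 1587 and 4111 bp in wild type. BAP1 knockout stayed the longer in both pairs either way, by 1801 and 324 bp with the whole window. No BAP1 peak lay there. Aldh1a1, the dehydrogenase of dorsal retina and liver (chromosome 19, 20492583 to 20643463), held no peak of any of the 7 lists within 5 kb, as did 32.2% of all genes for the 4 RNF2 lists.

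The genes of breakdown held the longest single RNF2 peaks of the 9. Cyp26a1, the main retinoic acid hydroxylase of the early embryo (chromosome 19, 37697738 to 37701536), and Cyp26c1 (37685112 to 37693320) are neighbours on chromosome 19 and share peaks. In both second libraries a single peak ran over the pair. It was 17088 bp long in BAP1 knockout, where it also touched the gene Exoc6, and 16968 bp in wild type. In the first libraries it was broken up. Over Cyp26a1 stood a peak of 5225 bp in BAP1 knockout (fold enrichment 21.4) and of 3398 bp in wild type (9.91). Over the end of Cyp26c1 nearer to Cyp26a1 stood one of 2198 bp (17.5) in BAP1 knockout and of 979 bp (3.52) in wild type. Over the start of Cyp26c1 stood one of 3386 bp (8.66) in BAP1 knockout, and 1264 bp downstream of that start one of 932 bp (2.25) in wild type. A further peak of 1033 bp lay within Cyp26c1 in the first BAP1 knockout library only.

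Counted per gene, RNF2 covered 6691 and 8864 bp of the Cyp26a1 window in BAP1 knockout, against 4321 and 8880 bp in wild type. The Cyp26c1 window held 9742 and 14307 bp in BAP1 knockout, against 3671 and 13961 bp in wild type. The first pair differed by 2370 and 6071 bp for Cyp26a1 and Cyp26c1, and the second pair by -16 and 346 bp. With the gap between the genes shared at its middle, Cyp26c1 held 6951 and 10947 bp in BAP1 knockout and 1911 and 10947 bp in wild type, so the second pair was equal and Cyp26c1 was longer in BAP1 knockout in the first pair only.

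Cyp26b1, the hydroxylase of hindbrain, limb and gonad (chromosome 6, 84571414 to 84593908), was occupied away from its annotated start. A domain of 7945 and 9206 bp in BAP1 knockout, and of 7404 and 9243 bp in wild type, lay inside the gene. In the first libraries it ran from 3229 to 11173 bp downstream of the start in BAP1 knockout, and from 3382 to 10785 bp in wild type. Its fold enrichment was 20.3 and 20.9 in BAP1 knockout and 9.84 and 19.3 in wild type. The start itself was covered by 1 peak alone, that of the second wild-type library, which was 109 bp long with an enrichment of 2.70. Over all genes with an RNF2 peak and an annotated start, the start was under a peak in 59.7% and 69.3% of them in BAP1 knockout and in 55.2% and 60.7% in wild type. The covered length over the whole window was 7945 and 10891 bp in BAP1 knockout and 7404 and 10935 bp in wild type, so that genotypes overlapped. A smaller site near the far end of the gene was listed in both second libraries, 18247 to 19726 bp from the start with an enrichment of 7.13 in BAP1 knockout, and as a pair of peaks of up to 4.31 between 18483 and 19697 bp in wild type.

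**Figure D3:**
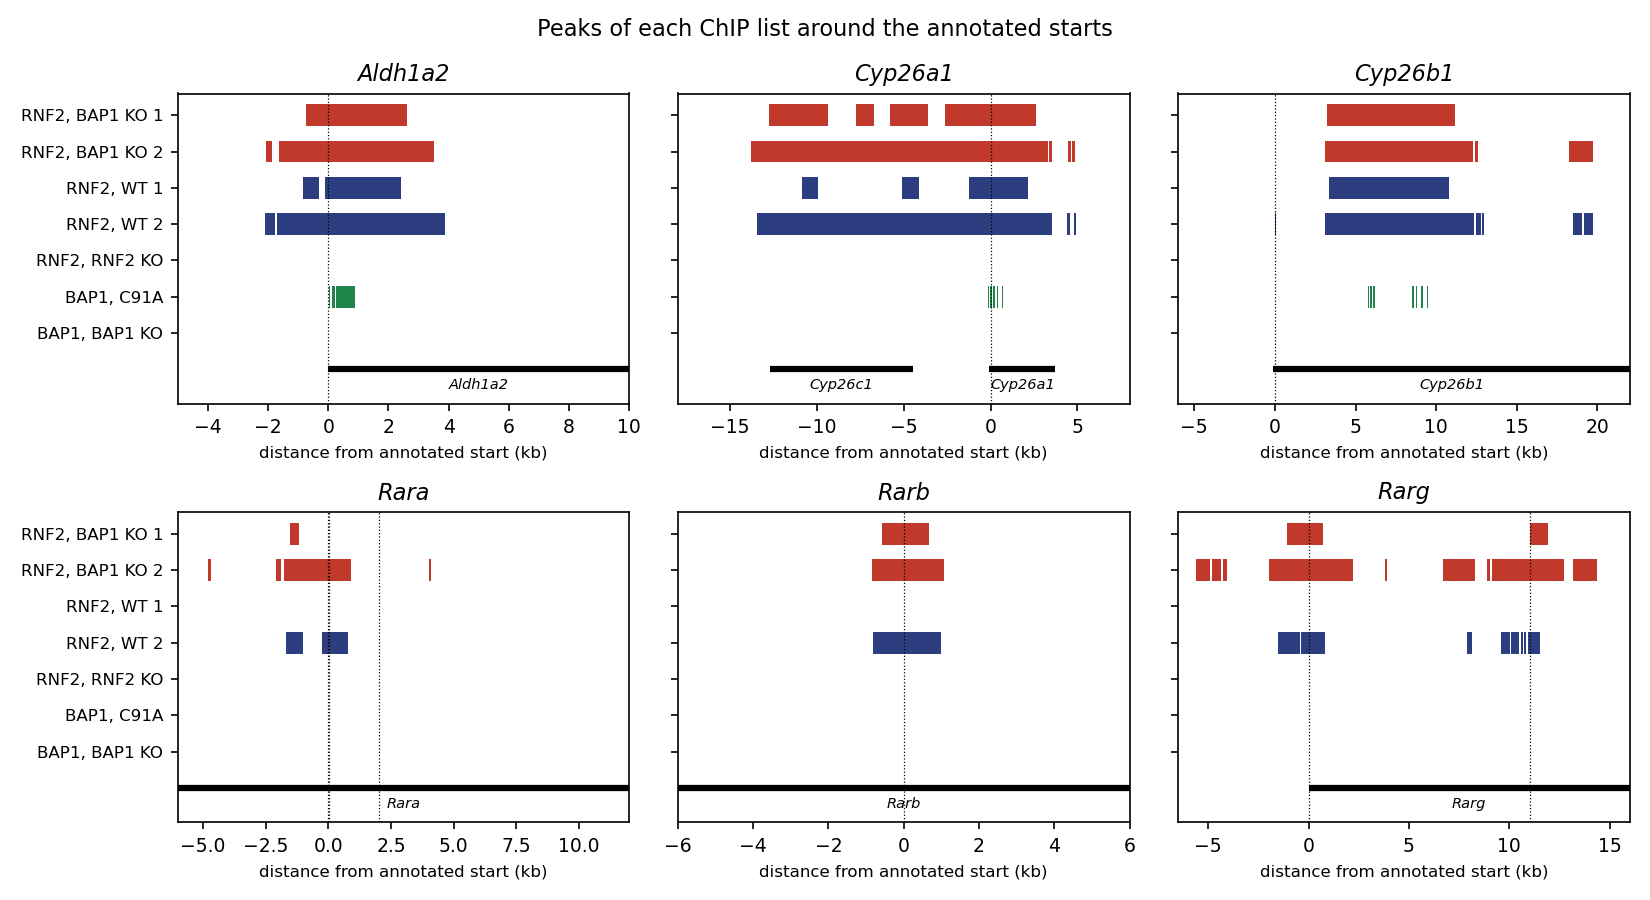
Peaks of the 7 ChIP lists (rows) against distance from the annotated start in the direction of transcription (kb). Bars are peaks (red for RNF2 in BAP1 knockout, blue for RNF2 in wild type, green for BAP1 in C91A cells), black bars are gene spans, dotted lines are annotated starts, the shortest peaks are drawn wider than to scale, and peaks beyond the plotted range, as the BAP1 peak of Rarb, are not drawn. The Cyp26b1 domain lies inside the gene, and the RNF2 knockout and the BAP1 knockout control have no bar in any panel.

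The receptor genes held RNF2 sites weaker than the strongest of Aldh1a2 and the Cyp26 genes, and absent from the first wild-type list. Rara, the most widely expressed receptor (chromosome 11, 98927800 to 98974942), held a single peak of 379 bp in the first BAP1 knockout library (fold enrichment 3.24) and 13 peaks in the second (highest 9.52). In wild type it held 0 and 4 peaks (highest 3.04). They covered 379 and 6026 bp in BAP1 knockout, against 0 and 2078 bp in wild type. The peak of the first BAP1 knockout library ended at -1159 bp relative to the nearest annotated start. In both second libraries a peak lay over that start, of 2670 bp in BAP1 knockout and 1051 bp in wild type. Each of these also touched the span of another protein-coding gene, Gm46294, so the cover of Rara there is shared in part.

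Rarb, the receptor gene that retinoic acid itself induces (chromosome 14, 16430839 to 17082331), held 1 peak over its annotated start in each library but the first wild-type one. It was 1257 and 1905 bp long in BAP1 knockout, enriched 5.84 and 12.8 times. In the second wild-type library it was 1817 bp long, with 7.56. Each of these peaks contained the direct repeat shown in capitals above. The widened span of Rarb is 661 kb, yet only 1 further RNF2 peak lay in it, of 271 bp in the second BAP1 knockout library.

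Rarg, the receptor of somites and skin (chromosome 15, 102234938 to 102257522), held 2 and 10 peaks in BAP1 knockout and 0 and 8 in wild type. They covered 2688 and 12016 bp in BAP1 knockout, against 0 and 4187 bp in wild type. The peak over the upstream start was 1793 and 4216 bp long in BAP1 knockout, with an enrichment of 6.22 and 16.4, and in the second wild-type library 1167 bp long with 5.68. The downstream start lay under a peak in both second libraries, of 3573 bp in BAP1 knockout and 630 bp in wild type, and 6 bp outside one in the first BAP1 knockout library. Within each pair the cover was longer in BAP1 knockout. Across pairs, the second wild-type library exceeded the first BAP1 knockout library, as it did for Rara and Rarb. Those libraries differ in depth and calling settings.

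**Figure D4:**
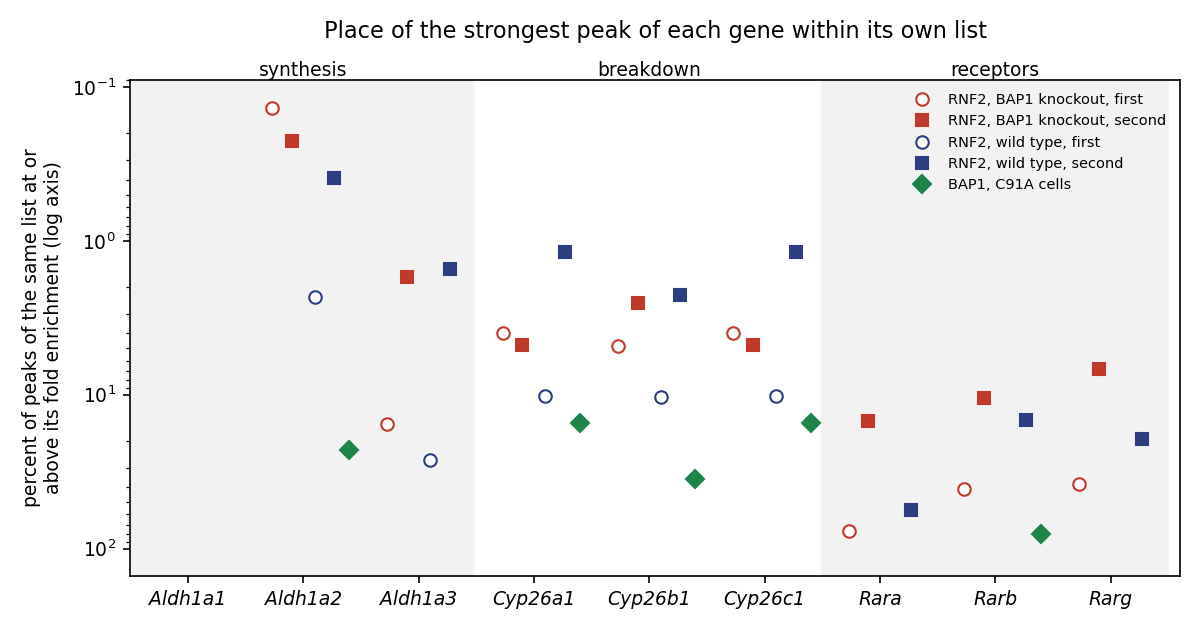
Percent of peaks of the same list with a fold enrichment at or above that of the strongest peak of each gene (log axis, strongest at the top), 1 point per list with a peak. Aldh1a2 stands at 0.138% to 2.33% in the RNF2 lists, the Cyp26 genes at 1.18% to 10.4% and the receptor genes at 6.78% to 77.3% in those lists. The point of Aldh1a3 is the peak over the Lrrk1 start in each RNF2 list but the first wild-type one. Cyp26a1 and Cyp26c1 share their strongest peak.

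Within the RNF2 lists that held receptor peaks, the strongest of these stood lower than those of Aldh1a2 and the Cyp26 genes. The first wild-type list held no receptor peak. In the first BAP1 knockout list, 77.3% of peaks were at or above that of Rara, 40.9% at or above Rarb and 38.1% at or above Rarg, whereas for the Cyp26 genes this was 3.95% to 4.85%. In the second BAP1 knockout list the receptor genes stood at 14.8%, 10.5% and 6.78%, and in the second wild-type list at 56.2%, 14.6% and 19.5%. The Aldh1a3 window stood at 15.4% and 1.72% in BAP1 knockout and at 26.5% and 1.52% in wild type. Except in the first wild-type list, its strongest peak was the one outside the gene, over the Lrrk1 start. The peak at the other end had 12.3 and 14.5 in BAP1 knockout and 17.8 in the second wild-type list. In the second BAP1 knockout list this was below the 16.4 of Rarg. Over all occupied genes the median of the highest fold enrichment was 5.60 and 6.81 in BAP1 knockout and 4.34 and 4.56 in wild type. Over the occupied genes of the pathway it was 16.3 and 18.5 in BAP1 knockout, and 9.91 and 19.8 in wild type. These medians count the peak shared by Cyp26a1 and Cyp26c1 once for each gene. For Aldh1a3 they use the Lrrk1 peak where it was the strongest. With 3 genes to a role, and Cyp26a1 and Cyp26c1 sharing their strongest peak, no test between roles was made.

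In the first pair, each occupied gene had longer RNF2 cover in BAP1 knockout than in wild type, as most occupied genes of the genome did. In that pair 8 of 9 genes had longer cover in BAP1 knockout, as did 28.7% of all genes and 95.8% of genes with a peak in either library. In the second pair 5 of 9 did (58.6% of all genes, and 86.4% of genes with a peak in either library). In that pair Aldh1a2, Cyp26a1 and Cyp26b1 had longer cover in wild type (9% of all genes). The difference of BAP1 knockout less wild type was -544 bp at Aldh1a2, -16 bp at Cyp26a1 and -44 bp at Cyp26b1. Aldh1a3, Cyp26c1 and the 3 receptor genes had the longer cover in BAP1 knockout in both pairs, 5 of 9 against 24.7% of all genes and 36.4% of genes with a peak in any of the 4 libraries. With flanks ended midway to the next gene these were 4 of 9, without Cyp26c1.

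The size of the difference in the second pair was greatest for Rarg and Rara. Cover was 2.90 times as long in BAP1 knockout as in wild type for Rara, 2.87 times for Rarg and 1.2 times for Rarb. For the 5 genes of synthesis and breakdown it was 0.908 to 1.05 times. Over the 12530 genes with a peak in both second libraries the median was 1.51, and 18.4% of them had a ratio as high as that of Rara or higher, so the receptor values were within the usual range. Aldh1a2 and the 3 Cyp26 genes were at the pileup ceiling in both of those libraries. The 558 genes at the ceiling in both had a median ratio of 1.00, and the other 11972 genes 1.56. The part of the ceiling in these values was not tested. In the first pair the ratio was 1.10 for Aldh1a2, 1.77 for Aldh1a3, 1.55 for Cyp26a1, 1.07 for Cyp26b1 and 2.65 for Cyp26c1, with a median of 1.71 over 3082 genes. The ratios of Aldh1a3, Cyp26a1 and Cyp26c1 include peaks of their neighbours. With flanks ended midway to the next gene, the first BAP1 knockout library covered 2296, 4891 and 6951 bp of them. The first wild-type library covered 1587, 3398 and 1911 bp.

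No gene of the pathway gained or lost RNF2 across all 4 libraries. A peak in both BAP1 knockout libraries and in neither wild-type one was found at 0 of 9 genes (0.11% of all genes), and the mirror case at 0 of 9 (0% of all genes). Within the first pair, Rara, Rarb and Rarg held a peak in BAP1 knockout alone, 3 of 9 against 15.5% of all genes, and within the second pair 0 of 9 did, against 9.01%. No gene was lost in either pair (0.372% and 1.28% of all genes). The receptor pattern, a peak in 3 libraries but not in the first wild-type one, occurred at 15.3% of all genes, so that it is common. Between 5 and 10 kb beyond Rara lay a site with an enrichment of 6.46 and 16.1 in BAP1 knockout and of 2.65 and 11.7 in wild type, so that Rara counted as occupied in both wild-type libraries with flanks of 10 kb.

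BAP1 peaks of C91A cells overlapped RNF2 peaks of wild-type and BAP1 knockout cells at Aldh1a2, Cyp26a1 and Cyp26b1. RNF2 was not mapped in C91A cells. By the window, 5 of 9 genes held a BAP1 peak, against 5.08% of all genes, and 0 of 9 held one in the BAP1 knockout control (0.156% of all genes). The count of 5 includes Cyp26c1, whose BAP1 peaks are those over the start of Cyp26a1, and Rarb, whose only one was far from its start. At Aldh1a2 and the 3 Cyp26 genes, RNF2 was listed in both wild-type libraries too, 4 of 9 against 2.43% of all genes. The count of BAP1 was 4 of 9 with each flank ended midway to the next gene. Each BAP1 value comes from 1 library with no replicate, and the control had 32.5 M tags against 415 M.

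Aldh1a2 held 3 BAP1 peaks from 23 to 891 bp downstream of its start, the highest with a fold enrichment of 3.84 in C91A cells. Cyp26a1 held 5, from -158 to 711 bp relative to its start, the highest at 4.06. Of these, 1 covered the start, and none covered the direct repeat upstream of it. Cyp26b1 held 7 inside the gene, from 5754 to 9491 bp downstream of the start and within the RNF2 domain, the highest at 3.68. The RNF2 peaks of all 4 BAP1 knockout and wild-type libraries overlapped each of these 15 peaks, as they did 77.1% of all 2395 BAP1 peaks. Rarb held a single BAP1 peak of 77 bp with a fold enrichment of 3.14, with its summit 126813 bp downstream of the annotated start, and no RNF2 peak of any library overlapped it. Over all genes with a BAP1 peak the median of the highest fold enrichment was 3.63. Within the C91A list, 15.3% of peaks were at or above that of Cyp26a1, 22.9% at or above Aldh1a2, 35.4% at or above Cyp26b1 and 80.9% at or above Rarb.

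Other genes of retinoic acid biology were counted in 3 lists, with Dhrs3, a retinaldehyde reductase gene, on both the first and the last. Of 15 genes of retinoid transport, storage and handling, 8 and 12 held RNF2 in BAP1 knockout and 3 and 12 in wild type. Over all genes the shares were 29.6% and 66.5% in BAP1 knockout and 14.5% and 58.8% in wild type, and 5.08% for BAP1 in C91A cells. The 3 in both wild-type libraries were Lrat, which stores retinol as esters (fold enrichment 16.5 and 22.6 in BAP1 knockout, 5.94 and 19.7 in wild type), Rbp4, the plasma carrier of retinol (7.90 and 23.5, against 5.77 and 21.8), and Crabp1, a cellular carrier of retinoic acid (16.6 and 14.8, against 5.60 and 21.4). Rdh10, which makes the retinaldehyde that Aldh1a enzymes use, held 3.52 and 10.0 in BAP1 knockout and none and 9.35 in wild type. It was named after its values were seen.

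Of 10 receptor partners, coactivators and corepressors, 4 and 10 held RNF2 in BAP1 knockout and 0 and 10 in wild type, beside the same shares of all genes. The 4 in the first BAP1 knockout library, named after their values were seen, were Rxra (7.19) and Rxrg (3.60), which encode retinoid X receptors, the coactivator gene Ncoa1 (3.10) and Nrip1 (3.59), a corepressor. No gene of these 2 lists held BAP1 in C91A cells.

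Of 16 known targets of retinoic acid, 15 and 15 held RNF2 in BAP1 knockout (29.6% and 66.5% of all genes) and 13 and 16 in wild type (14.5% and 58.8%). BAP1 in C91A cells was held by 10 of 16, against 5.08% of all genes. Those with the highest values in their lower wild-type library were Nr2f2 and Nr2f1, which encode orphan receptors that restrain retinoic acid signalling, and Hoxd4 and Hoxa4, hindbrain patterning genes. Nr2f2 had a fold enrichment of 24.0 and 20.1 in BAP1 knockout and of 21.3 and 19.01 in wild type, with 4.83 for BAP1. Nr2f1 had 25.6 and 17.1 in BAP1 knockout and 17.02 and 22.1 in wild type, with 5.06 for BAP1. Hoxd4 had 20.4 and 19.6 in BAP1 knockout and 15.502 and 16.8 in wild type, and Hoxa4 29.5 and 18.5 in BAP1 knockout and 21.2 and 15.498 in wild type, with 3.25 and 3.30 for BAP1. Among the others with BAP1 were, at 3.68 to 4.91, Hoxb4, Meis1, Meis2, Foxa1 and Tshz1. Of these, Hoxb4 tied with Hoxa4 in the lower wild-type value, 15.498. The Hox genes lie in clusters, so that a domain can span several of them. Longer cover in BAP1 knockout in both pairs was found at 8 of 15, 4 of 10 and 5 of 16 genes of these lists, against 24.7% of all genes.

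By the highest fold enrichment in the 4 RNF2 lists and the C91A list, the genes most like Aldh1a2 were Tfap2b, Shox2 and Hoxc4. Their distance from it over the 5 lists on the log2 scale was 0.18, 0.26 and 0.29. Those most like Cyp26a1 were Lmo2, Barx1 and Shisa6 (0.16, 0.24 and 0.27). Those most like Rarb, taken among the receptor genes by its second wild-type value since all 3 had none in the first, were Notch1, Pi4ka and Homez (0.26, 0.32 and 0.43). Tfap2b, Shox2, Hoxc4, Lmo2 and Barx1 encode developmental regulators of transcription. Notch1, Pi4ka and Homez, like Rarb, had no peak in the first wild-type list and held BAP1 in C91A cells. Both lists are among those that set the distance, so neither trait is a separate result. The BAP1 value of Rarb in these distances was 3.14, from the peak far from its start that no RNF2 peak overlapped. Aldh1a2 and Cyp26a1 were at the pileup ceiling in both second libraries, and Aldh1a2 and Tfap2b had the same value in the second BAP1 knockout list (23.9). The part of the ceiling in these distances was not tested.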

How the data were processed

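The submitters' processing notes name GSNAP and GRCm38 for the ChIP-seq reads. Per the file headers, the authors called peaks with MACS2 in each library against its own input, with q at most 0.05 and 1 tag kept per position and strand. The version was 2.1.0.20150420 for both first RNF2 libraries and both BAP1 libraries and 2.1.1.20160309 for the others. Fragments were extended to 297 bp (first wild type), 323 bp (first BAP1 knockout), 100 bp (second RNF2 libraries and RNF2 knockout), 50 bp (C91A) and 147 bp (BAP1 knockout control). The deposited lists give pileup signal, −log10 p-value and q-value, and fold enrichment, a ratio. Fold enrichment served to describe and rank peaks within a list, to name pathway genes, and for the distances between genes over 5 lists. Its values in different lists stand side by side as description only, since they depend on depth and calling settings. Positions in the deposited lists are 1-based.

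Peaks of the autosomes, X and Y were overlapped with protein-coding genes of RefSeq (GRCm38.p6), less 108 entries placed within 3 Mb of position 1 of the autosomes or X. Starts and promoters came from a RefSeq table with starts for 17491 of these genes. Covered length is the number of bases of a window under peaks. The overlap code was tested on simulated peaks against bedtools 2.31.1. Python 3.11.15 and pandas 2.3.3 were used. Genes, lists and roles were chosen with earlier results of these data known. Genes named outside the 9 are, per list, the up to 4 with the highest lower wild-type fold enrichment above 0 and those with a BAP1 peak, unless said otherwise; 1 gene named by this rule is not reported here. Peak lists hold no counts, so no count test was made. Windows, peak thresholds, overlap rules and left-out libraries were the alternatives.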

Additional observations from a re-analysis of the deposited data

How the results depend on the processing

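The counts moved with the window, the peak threshold and the libraries, and shares of all genes under the same setting stand in parentheses. Within 1 kb of an annotated start, among 8 genes, RNF2 lay at 5 in both BAP1 knockout libraries (22.3%) and at 2, Aldh1a2 and Cyp26a1, in both wild-type libraries (10.6%). Cover was longer in BAP1 knockout in both pairs at 2, Rarb and Rarg (14.7%), and BAP1 lay at 2 (3.78%). With −log10 q of at least 5, BAP1 lay at 2 of 9 genes, Cyp26a1 and Cyp26c1 by shared peaks (1.54%), and with at least 10 at 0 (0.106%). With each RNF2 list shortened to its 4038 best peaks, 1 gene, Rarg, was gained (1.8%) and 3 had longer cover in both pairs (10.9%). A peak then remained in the first and second BAP1 knockout list alike at 6 of 9 genes (15.2%), Rara and Rarb dropping out. Rara had a mean cover of 0 bp in both genotypes. Rarb had 628.5 bp in BAP1 knockout and 0 bp in wild type. With −log10 q of at least 10 the count of 6 was 7 instead (22%), Rara dropping out, and Rara had 0 bp in wild type. The second-pair ratio of 2.90 for Rara could not be formed under either setting. Leaving out 1 library at a time, occupancy in wild type ranged from 5 to 8 and in BAP1 knockout stayed at 8, gained genes ranged from 0 to 3, lost genes stayed at 0, and longer cover ranged from 5 to 8. The 3 gains, the receptor genes, appeared without the second wild-type library (15.4%), the 8 genes occupied in wild type without the first (58.8%), and the 8 with longer cover without either second library (28.7%). In the first pair alone 3 genes were gained (15.5%) and 8 had longer cover (28.7%), and in the second pair alone 8 were occupied in wild type (58.8%). Of the values of these counts, 84 stayed within 1.5 times those reported, the 6 and 7 in BAP1 knockout among them. The window that ends midway to the next gene was chosen after seeing the data, and moved no count by more than that. Differences within pairs are given as values. No paired analysis was possible because peak lists gave no fitted test to which a replicate block could be added. Depth and calling settings cannot be told apart between first and second libraries.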

Other observations

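The 17 promoters with a direct repeat of receptor hexamers at a spacing of 5 bases belonged to 16 genes, and were looked at after the repeats in Cyp26a1 and Rarb had been seen. Their starts lay under an RNF2 peak at 4 and 5 of the 17 in BAP1 knockout and at 2 and 5 in wild type. Of all 21262 promoters, the start lay under a peak at 3372 and 9202 in BAP1 knockout and at 1483 and 6988 in wild type. Counted per gene, with any of its starts, the shares were 16.9% and 45.5% in BAP1 knockout and 7.46% and 35.1% in wild type. In all 4 of these libraries the start was covered at Cyp26a1 and Syndig1, a gene of synapse assembly. Rarb and Prokr2, which encodes a prokineticin receptor, had a covered start in both BAP1 knockout libraries and the second wild-type library, and Tnfsf13b, a B-cell cytokine gene, in both second libraries. The starts of the embryonic globin gene Hbb-y and of Blvrb, Cfap45, Ppbp and Prss27 were covered in none of the 7 lists. BAP1 in C91A cells covered the start of Cyp26a1 alone among the 17.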
